A study of Mus musculus with 8 samples.

Results

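Transcripts of the BCL2 family were examined in intraepithelial lymphocytes (IELs) of the mouse gut, a population of mostly T cells lodged within the intestinal lining. The family was represented by 10 genes, taken from the 25230 gene symbols of the deposited count table by their symbols. They are the pro-survival genes Bcl2, Bcl2l1, Mcl1 and Bcl2a1b, the effectors Bax and Bak1, and the BH3-only genes Bid, Bcl2l11, Pmaip1 and Bbc3. The genes were chosen by name, with their measured log2 fold changes between exendin-4 and PBS in these same libraries known, those of Bid and Bcl2l1 above all. Their differences are therefore described without a test and support nothing beyond themselves.

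The libraries came from 8 C57BL/6J mice, all injected in the peritoneum with 35 µg of an antibody to CD3, the signalling part of the T cell receptor, which stimulates T cells. PBS accompanied the antibody in 4 mice. In the other 4 it was exendin-4 (Ex4), a peptide that activates the receptor of the gut hormone GLP-1, at 10 nmol/kg. Cells were taken after 3 h, enriched on Percoll and sorted for CD45, which is carried by leukocytes in general and not by IELs alone. No group without anti-CD3 was analysed here, and the age and sex of the mice were not given in the sources used here.

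BCL2 family proteins decide whether the outer mitochondrial membrane stays intact. BAX and BAK permeabilise that membrane, BCL2, BCL-XL, MCL1 and A1 hold them in check, and BH3-only proteins either neutralise the guardians or activate the effectors. In T cells, cytokines such as IL-15 sustain the guardians, while receptor stimulation and loss of growth factors act largely through the BH3-only protein BIM. Much of this control is on the proteins, by cleavage, phosphorylation and degradation, and is not seen in transcript counts.

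Total counts ran from 13386889 to 31843413 per library, so that members at a few CPM (counts scaled to a common library size) are the least precise. All 12 T cell and IEL markers, among them Cd3e, Cd8a and Itgae, were detected in every library, with a summed level of 51502 to 77491 CPM in PBS and 68873 to 82454 CPM in Ex4. All 11 epithelial markers were also detected in every library, with sums from 402 to 693 CPM in PBS and from 247 to 428 CPM in Ex4. The 8 B and plasma cell markers summed to 874 to 1482 CPM in PBS and 274 to 2259 CPM in Ex4, and 8 macrophage and dendritic cell markers to 104 to 196 and 104 to 161 CPM. The 8 neutrophil and mast cell markers summed to 212.7 CPM in PBS 1, against 72.8 to 77.0 CPM in the other PBS libraries and 54.3 to 88.8 CPM in Ex4. Of 7 stromal, endothelial and red cell markers, Hba-a1 and Hbb-bs were at 0 in all libraries, and the sums were 4.81 to 14.2 and 3.76 to 18.8 CPM. PBS 2 and Ex4 3 stood apart from the rest at one end of the first principal component, and Ex4 4 at the other. In bulk samples such as these, fewer cells of a type and less RNA per cell cannot be told apart.

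Among the members, Bid and Bcl2l1 were lower in every Ex4 library than in every PBS library, and Pmaip1 was higher. Over all 14691 genes tested, 2.66% had groups that did not overlap with Ex4 lower, and 2.29% with Ex4 higher. In either direction it was 4.95% of all genes, against these 3 of 10 members. In the edgeR quasi-likelihood test with Benjamini-Hochberg adjustment over all genes, 0 of the 10 members passed 0.05, where 0.0136% of all genes did. DESeq2 called 1 member, Bid, where it called 0.895% of the genes it adjusted. It gave Bak1 and Bbc3 no adjusted p. At an unadjusted edgeR p under 0.05 there were 4 members, Bid, Bcl2l1, Bcl2 and Pmaip1, where 7.61% of all genes reached it. Since the choice of members used this contrast, nothing is read from these counts. The mean was higher in Ex4 for 5 members and lower for 5, with a median log2 fold change of -0.052, against 0.020 over all genes tested.

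**Figure D1:**
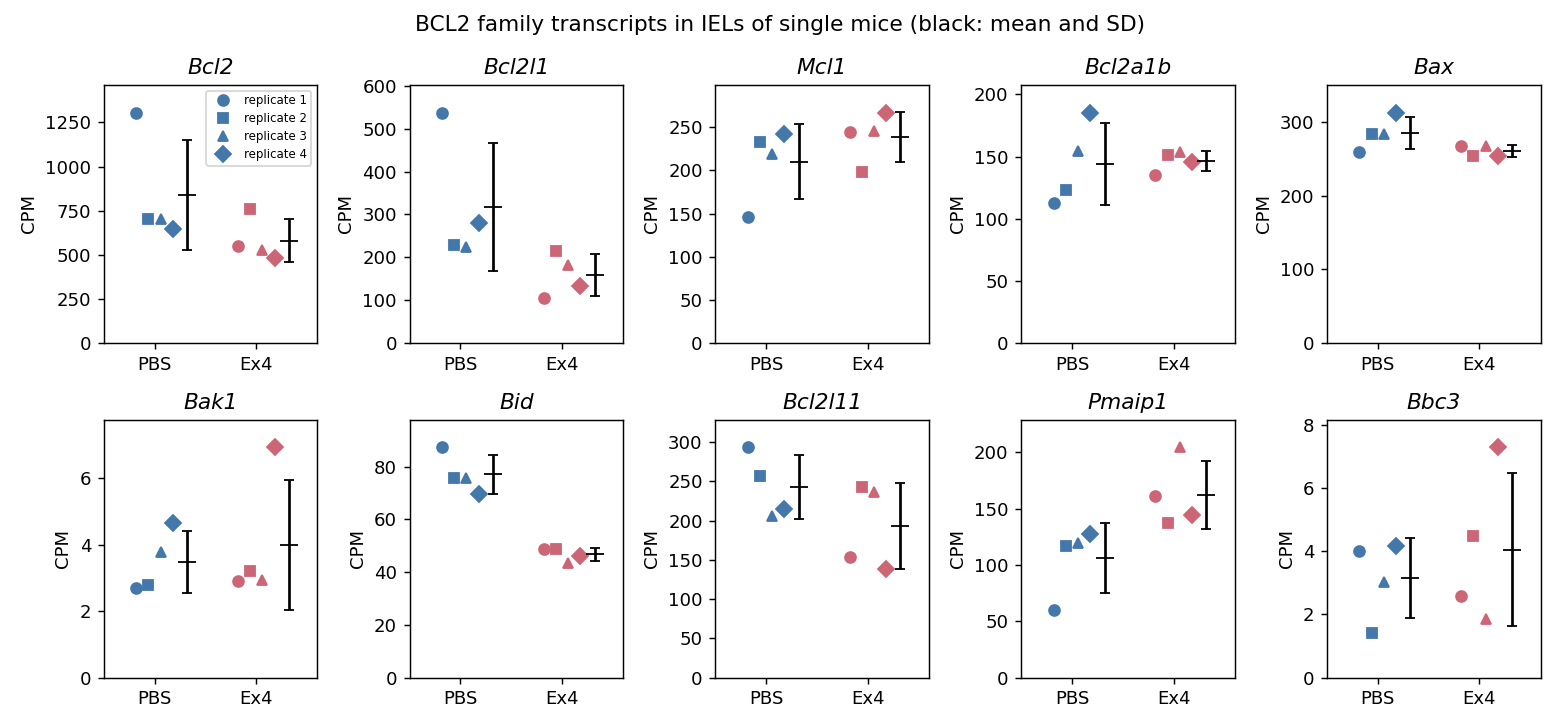
Level of each member in CPM (linear axis from 0, different for each gene) in the 4 PBS and 4 Ex4 libraries, with marker shape for the replicate number and the group mean and SD in black. Bid, Bcl2l1 and Pmaip1 show no overlap between groups, and PBS 1 (circle) lies at an end of the PBS group for 9 of the 10 genes.

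Bcl2l1 encodes BCL-XL, the pro-survival protein best known from activated lymphocytes, and a short pro-death splice form that gene counts do not separate. Its level in PBS replicates 1 to 4 was 538, 229.6, 223.7 and 280.3 CPM. In Ex4 replicates 1 to 4 it was 105.9, 215.2, 181.3 and 132.9 CPM. PBS 1 stood far above the rest, and the highest Ex4 library lay just under the lowest PBS library. The group levels were 317.9 ± 149 and 158.8 ± 48.9 CPM (SD, n = 4 each), a log2 fold change of -1.0 (SE 0.31) from the edgeR fit. Without PBS 1 the log2 fold change was -0.63. The gene lies on chr2:152780668-152831728 of GRCm38 (GENCODE release M21, minus strand).

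Bcl2, the founding member of the family, had the most counts of the 10 genes. It was at 1306, 702, 701 and 645 CPM in PBS 1 to 4 and at 549, 757, 529 and 480.3 CPM in Ex4 1 to 4. Ex4 2 exceeded 3 of the 4 PBS libraries, so the groups overlapped. Their means were 839 ± 313 and 579 ± 122 CPM (SD, n = 4 each), with a log2 fold change of -0.54 (SE 0.22) that was -0.25 without PBS 1. PBS 1 exceeded the mean of the other PBS libraries 1.91-fold for Bcl2 and 2.20-fold for Bcl2l1.

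Mcl1 encodes a short-lived guardian that is rebuilt continually from its mRNA. It was at 146.6, 232.5, 218.7 and 242.6 CPM in PBS 1 to 4 and at 244, 198.6, 246 and 267 CPM in Ex4 1 to 4. Here PBS 1 was the lowest of all 8 libraries, the opposite of its place for Bcl2 and Bcl2l1. The log2 fold change was 0.19 (SE 0.16), and 0.037 without PBS 1.

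Bcl2a1b encodes one of the A1 proteins, NF-kappaB-driven guardians of activated leukocytes, and ran from 112.6 to 185.4 CPM in PBS and from 135.2 to 153.8 CPM in Ex4. The means were 143.9 ± 33.0 and 146.4 ± 8.27 CPM (SD, n = 4 each), and the log2 fold change was 0.025 (SE 0.15), with a sign that turned when PBS 1, PBS 2, Ex4 2 or Ex4 3 was left out. The mouse has several A1 genes with nearly the same sequence, so the split of reads among them is uncertain. The first 60 coding bases in GENCODE (release M21), positions 1 to 60 from the start codon, are shown because they hold differences by which a read can be assigned to a copy, with capitals at the 6 positions where any copy differs.
Bcl2a1a: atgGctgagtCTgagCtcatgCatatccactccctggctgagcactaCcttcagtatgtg
Bcl2a1b: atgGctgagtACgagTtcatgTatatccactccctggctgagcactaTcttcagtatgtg
Bcl2a1d: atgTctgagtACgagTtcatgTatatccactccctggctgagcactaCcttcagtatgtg
Over 516 coding bases Bcl2a1b matched Bcl2a1a at 97.9% and Bcl2a1d at 98.8% of positions. Of the 100-base windows of the Bcl2a1b transcript 31.1% also occurred unchanged in another copy, and of the 200-base windows, the length of 1 sequenced read, 2.91%. Summed over Bcl2a1a, Bcl2a1b and Bcl2a1d the level was 247 ± 54.8 CPM in PBS and 252 ± 10.3 CPM in Ex4 (SD, n = 4 each), so the group means also lay close together when the split was removed.

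Bax, whose protein forms the membrane pore, was among the steadiest genes of its level. It ran from 260.1 to 313.3 CPM in PBS and from 254.2 to 268.5 CPM in Ex4, with a log2 fold change of -0.13 (SE 0.12). Its within-group SD on the log2 scale was 0.083, smaller than that of all but 0.778% of the 643 genes with a mean log2 CPM within 0.5 of its own. Bak1, the other effector, was barely expressed, from 2.69 to 4.67 CPM in PBS and from 2.92 to 6.94 CPM in Ex4, on 56 to 98 counts per library. Its log2 fold change of 0.19 (SE 0.41) was -0.21 without Ex4 4, the library that held the 6.94 CPM.

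Bid is the BH3-only protein that caspase-8 and granzyme B cut into its active form, and so links death receptors and cytotoxic granules to mitochondria. Its level was 87.3, 75.5, 75.8 and 69.5 CPM in PBS 1 to 4 and 48.8, 48.7, 43.5 and 46.3 CPM in Ex4 1 to 4. The 4 Ex4 libraries lay within a few CPM of each other and well below all PBS libraries. The means of 77.0 ± 7.44 and 46.8 ± 2.48 CPM (SD, n = 4 each) gave a log2 fold change of -0.72 (SE 0.12), which stayed between -0.78 and -0.66 with any 1 library left out. The gene lies on chr6:120891930-120916853 of GRCm38 (minus strand). Its within-group SD of 0.11 on the log2 scale was low for its level, at percentile 5.49 of 1932 genes, whereas that of Bcl2l1 was 0.53, at percentile 97.4 of 853 genes.

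The sequence just upstream of the RefSeq start site of Bid is shown because Bid had the clearest separation of the groups. These are the 250 bases before that site, chr6:120916825-120917074 on the minus strand of GRCm38.p6, 5′ to 3′ along the gene. The GENCODE gene starts within this stretch, at 120916853, so the last bases shown lie inside that gene model. Capitals mark GGGCGG, the GC box bound by SP1-type factors, which occurs there 3 times.
Bid: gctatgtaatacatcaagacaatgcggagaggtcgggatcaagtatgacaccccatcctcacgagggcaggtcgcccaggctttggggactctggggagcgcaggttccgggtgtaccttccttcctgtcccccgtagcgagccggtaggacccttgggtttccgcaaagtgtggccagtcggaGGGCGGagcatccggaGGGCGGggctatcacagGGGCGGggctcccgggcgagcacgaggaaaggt
On either strand, GGGCGG occurs in 35.7% of all 32851 RefSeq promoter windows of 300 bases, and in 10 of the 14 windows of members. Some genes have several windows, and those with a match belong to 7 of the 9 members found there. The 3 windows of Bcl2l1 and that of Bak1 held none.

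Bcl2l11 encodes BIM, a main executor of T cell death after stimulation. It was at 293, 257.1, 205.2 and 214.7 CPM in PBS 1 to 4 and at 153.3, 242.3, 236.9 and 137.7 CPM in Ex4 1 to 4. Ex4 2 and Ex4 3 lay inside the PBS range, and Ex4 1 and Ex4 4 below it. The log2 fold change was -0.33 (SE 0.19), and -0.22 without Ex4 4.

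Pmaip1 encodes NOXA, a BH3-only protein that binds MCL1 and marks it for degradation. Its level was 59.8, 117, 119.6 and 127.5 CPM in PBS 1 to 4 and 160.9, 137.2, 204.6 and 144.5 CPM in Ex4 1 to 4. PBS 1 had the lowest value and Ex4 3 the highest, while the closest libraries of the groups, PBS 4 and Ex4 2, differed by little. The means were 106 ± 31.1 and 161.8 ± 30.2 CPM (SD, n = 4 each), a log2 fold change of 0.61 (SE 0.21) that was 0.40 without PBS 1. Bbc3 encodes PUMA, a target of p53, and stayed near the detection limit at 1.41 to 4.16 CPM in PBS and 1.86 to 7.29 CPM in Ex4. Its log2 fold change of 0.36 (SE 0.49) was -0.091 without Ex4 4, the library with the highest value.

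PBS 1 was at an end of the PBS group for 9 of the 10 members. It was above the other PBS libraries for Bcl2, Bcl2l1, Bid and Bcl2l11, below them for Mcl1, Bcl2a1b, Bax, Bak1 and Pmaip1, and within them for Bbc3. For all of these 9 except Bax, its deviation from the other PBS libraries had the sign opposite to the Ex4 difference. PBS 1 thereby widened the gap between the group means, except for Bcl2a1b. There the log2 fold change turned from 0.025 to -0.086 when PBS 1 was left out. The same library had the highest neutrophil and mast cell marker sum and the lowest T cell and IEL marker sum. Its macrophage and dendritic cell sum of 195.7 CPM was also the highest of all libraries. Its B and plasma cell sum of 1482 CPM was the highest in PBS, though below that of Ex4 3. The part of these other cells in the values of the members was not tested. The epithelial marker sum was below that of every PBS library in Ex4 1, Ex4 2 and Ex4 4, and above that of PBS 1 alone in Ex4 3. With the log2 of the summed epithelial markers as a term in the edgeR fit the log2 fold change was -0.80 for Bid, -1.06 for Bcl2l1, -0.70 for Bcl2 and 0.87 for Pmaip1. Without PBS 2 and Ex4 3 it was -0.71 for Bid, -1.21 for Bcl2l1, -0.58 for Bcl2 and 0.52 for Pmaip1. Without PBS 1 the groups of 4 members did not overlap, Bid, Bcl2l1 and Bax with Ex4 lower, where 3.87% of all genes did so, and Pmaip1 with Ex4 higher, where 3.35% did. Without Ex4 2 the count was 5, Bid, Bcl2l1 and Bcl2 with Ex4 lower, where 4.45% of all genes did so, and Pmaip1 and Mcl1 with Ex4 higher, where 4.53% did. Leaving out a library can only keep or raise such a count, and without PBS 2 it was 3. Nothing is read from the rise.

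**Figure D2:**
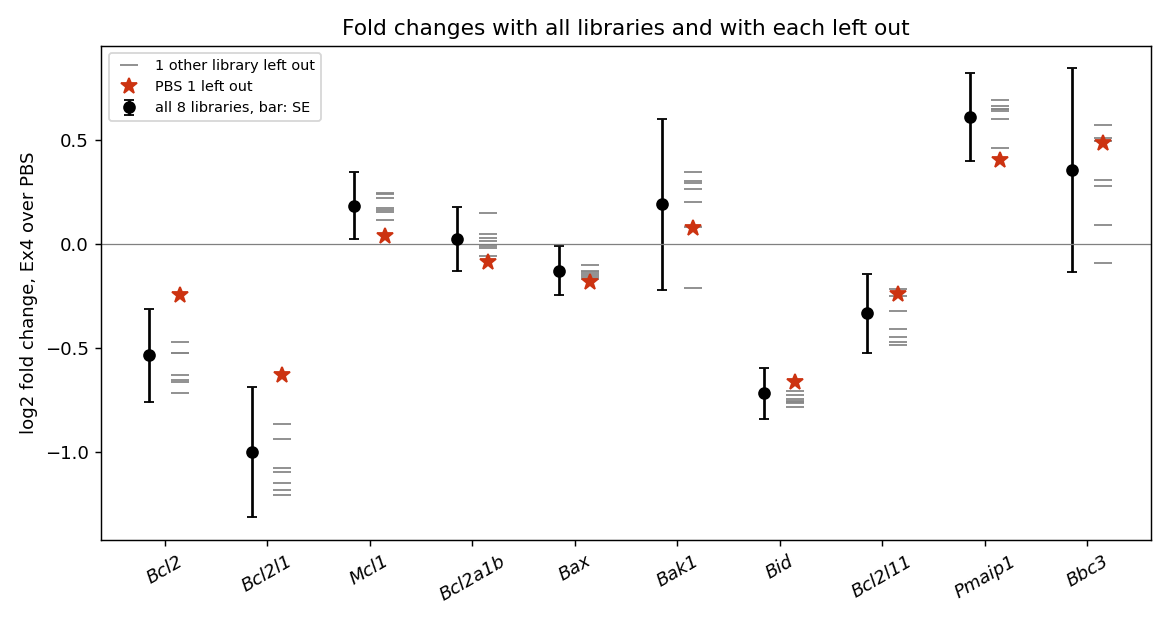
The log2 fold change of each member, Ex4 over PBS, with all 8 libraries (black, bar: SE of the edgeR fit) and with 1 library left out at a time (dashes, red star for PBS 1). For Bid, Bcl2l1, Bcl2, Mcl1, Pmaip1 and Bak1 the value closest to 0 is that without PBS 1. All values of Bid lie from -0.78 to -0.66.

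Levels of different genes were compared as CPM per kb of exon, which allows for gene length but depends on the GENCODE exon models. In PBS, Bax (181.3 ± 13.8) and Bcl2a1b (176.2 ± 40.4) led, followed by Bcl2 (91.6 ± 34.2), Bcl2l1 (69.3 ± 32.5), Mcl1 (61.5 ± 12.7), Pmaip1 (38.8 ± 11.4), Bcl2l11 (30.2 ± 5.06) and Bid (21.7 ± 2.10), all in CPM per kb (SD, n = 4). Bbc3 (1.48 ± 0.594) and Bak1 (1.45 ± 0.387) were lowest by a wide margin. Of neighbours in the PBS order, Bcl2l11 with Bid and Bid with Bbc3 had ranges that did not overlap, and the other 7 pairs overlapped. In Ex4 the order of the middle ranks differed, with Mcl1 (69.9 ± 8.45), Bcl2 (63.2 ± 13.4) and Pmaip1 (59.2 ± 11.1) above Bcl2l1 (34.6 ± 10.7), in CPM per kb (SD, n = 4). Bax with Mcl1, Pmaip1 with Bcl2l1, Bcl2l11 with Bid and Bid with Bbc3 had ranges that did not overlap in Ex4, and the other 5 neighbouring pairs overlapped. The Pmaip1 range lay wholly above that of Bcl2l1 in Ex4, whereas in PBS every library had more Bcl2l1 than Pmaip1.

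**Figure D3:**
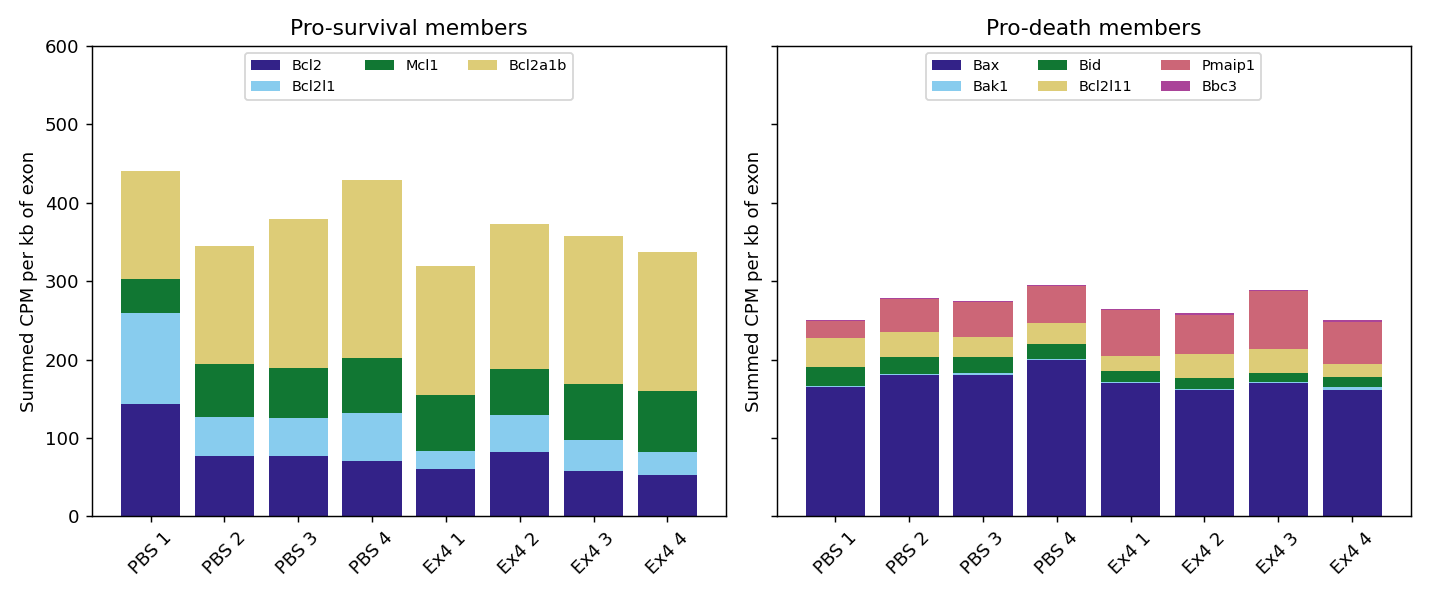
Stacked bars of CPM per kb of exon in each library, for the 4 pro-survival members (left) and the 6 pro-death members (right), on the same linear axis. Bax makes the largest part of the pro-death bars and Bcl2a1b of the pro-survival bars, except in PBS 1, where Bcl2 does. The part of Bcl2l1 is smaller and that of Pmaip1 larger in Ex4, while the heights of the whole bars overlap between groups.

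The summed balance of the family overlapped between the groups. Pro-survival transcripts summed to 441, 345, 379 and 429 CPM per kb in PBS 1 to 4 and to 319.9, 373, 357.5 and 337.5 CPM per kb in Ex4 1 to 4. Pro-death transcripts summed to 251, 278, 274 and 296 CPM per kb in PBS 1 to 4 and to 265, 259, 289 and 251 CPM per kb in Ex4 1 to 4. The ratio of the sums was 1.46 ± 0.218 in PBS and 1.31 ± 0.106 in Ex4 (SD, n = 4 each), and it was above 1 in all 8 libraries. On the log2 scale the Ex4 mean was lower by 0.15, less than the SD of the PBS group of 0.21, and lower by 0.054 without PBS 1. Bcl2a1b, whose share of the A1 reads is uncertain, made up 44.4 ± 9.59% of the pro-survival sum in PBS and 51.7 ± 1.43% in Ex4. Without it, the other pro-survival transcripts summed to less than the pro-death transcripts in every library except PBS 1. A ratio above 1 therefore rests on Bcl2a1b outside PBS 1. No p is given for the ratio of sums, since the genes in it were chosen with their values known.

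The makeup of each sum separated the groups for several members. Bcl2l1 made up 26.6, 14.5, 12.9 and 14.2% of the pro-survival sum in PBS 1 to 4 and 7.22, 12.6, 11.1 and 8.59% in Ex4 1 to 4, with no overlap. Pmaip1 made up 8.71, 15.4, 16.0 and 15.8% of the pro-death sum in PBS 1 to 4 and 22.3, 19.4, 25.9 and 21.1% in Ex4 1 to 4. Bid stood the other way round, at 6.62 to 9.79% of the pro-death sum in PBS and 4.25 to 5.30% in Ex4. Bax, the largest component of the pro-death sum, made up 65.9 ± 1.00% in PBS and 62.5 ± 2.61% in Ex4 (SD, n = 4 each), also with no overlap. These shares come from the same values that chose the members and follow from them.

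Most ratios of a guardian to a single death gene overlapped between the groups, and a few stood apart, in both directions. Of 24 such ratios within libraries, 2 were higher in every Ex4 library than in every PBS library, 1 was lower, and the other 21 overlapped. Mcl1 to Bid had a mean log2 ratio of 1.48 ± 0.466 in PBS and 2.40 ± 0.230 in Ex4, and Bcl2a1b to Bid of 3.00 ± 0.449 and 3.76 ± 0.143 (SD, n = 4 each). Bcl2l1 to Pmaip1 had 0.80 ± 1.09 and -0.81 ± 0.522, with 2.42 in PBS 1 alone and 0.16 to 0.39 in the other PBS libraries. Bcl2 to Bax, the textbook rheostat, had -1.05 ± 0.570 in PBS and -1.41 ± 0.303 in Ex4 and overlapped. Each ratio that stood apart holds Bid, Bcl2l1 or Pmaip1. Like the shares, these ratios come from the same values that chose the members and follow from them.

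**Figure D4:**
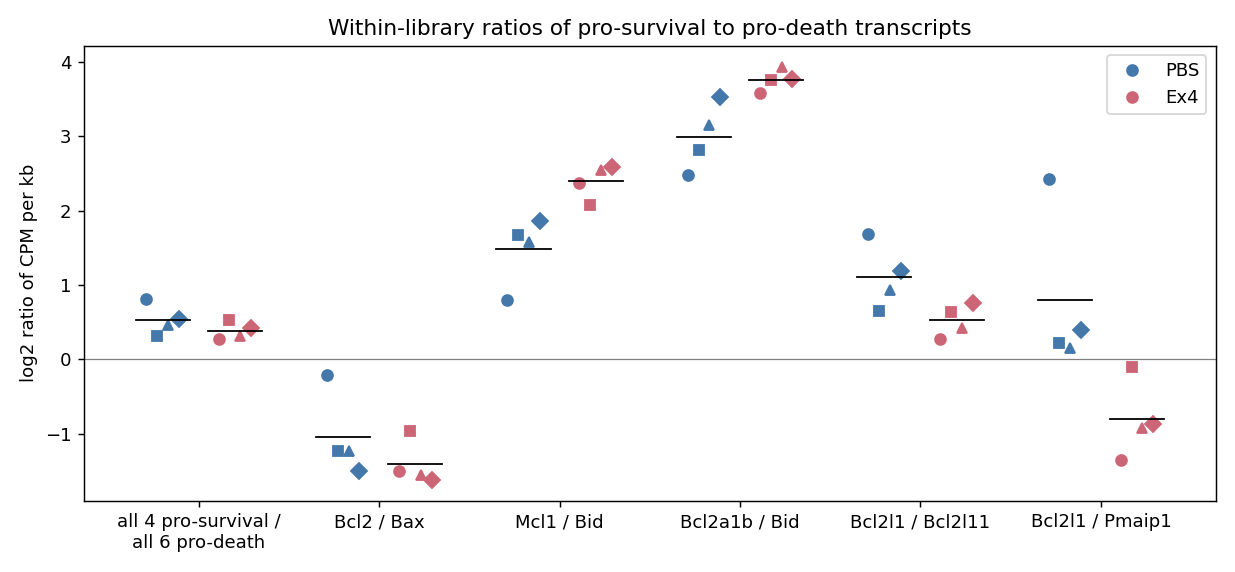
The log2 ratio of CPM per kb within each library, for the summed members and for 5 pairs of a pro-survival and a pro-death gene. Points are libraries, with marker shape for the replicate number, and black lines are group means. The ratios of Mcl1 and Bcl2a1b to Bid are higher in Ex4, the ratio of Bcl2l1 to Pmaip1 is lower, and the summed ratio and that of Bcl2 to Bax overlap.

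Letters of sites for factors that act downstream of cAMP, FOXO and cytokines were searched for in the RefSeq promoter windows of GRCm38.p6, from 250 bases before to 50 after each start site, on both strands. The 9 members in that table had 14 windows. TGACG, the half-site of the cAMP response element that CREB binds, was in 4 of the 14 and in 20.8% of all windows. TGTTTAC, a FOXO site, was in 2 of the 14 and in 3.65% of all windows. The full cAMP element TGACGTCA, which contains the half-site, was in 0 of the 14 and in 1.79% of all windows, and the STAT pattern TTCNNNGAA in 0 of the 14 and in 8.3%. The matches are shown with their flanks, 29 bases each, 5′ to 3′ along the gene, with the motif or its reverse complement in capitals, because exendin-4 acts through a receptor that raises cAMP and because Bcl2l11 and Bbc3 are known FOXO targets.
Bcl2 (TGACG, in chr1:106714241-106714540, minus strand): ttgaatgaacggTGACGtacgtacaggaa
Bcl2a1b (TGACG, in chr9:89199023-89199322, plus strand): cacgcacataagTGACGagaaggaaggac
Mcl1 (TGACG, in chr3:95658471-95658770, plus strand): agtcctcgcctgCGTCAgcacggccctaa
Bbc3 (TGACG, in chr7:16309333-16309632, plus strand): gcggggccctggCGTCAcgcgggggcggg
Bbc3 (TGTTTAC, in chr7:16310011-16310310, plus strand): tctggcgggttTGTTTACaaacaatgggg
Bcl2l11 (TGTTTAC, in chr2:128125788-128126087, plus strand): aagacactaggGTAAACAcgccggggtgg
These matches are a description of the letters. Of the 3 members whose groups did not overlap, Bid and Bcl2l1 had none of these 4 motifs in their windows, and the window of Pmaip1 was not used here.

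The rest of the BCL2 family showed no called gene. Of 18 further members 15 passed the count filter, and Bcl2a1c, Bcl2l10 and Hrk, the gene of the BH3-only protein Harakiri, did not. In the edgeR test 0 of the 15 passed, with 8 above 0 and 7 below and a median log2 fold change of 0.015. DESeq2 also called 0, though it gave no adjusted p for some of the 15 that were at a few CPM. At an unadjusted edgeR p under 0.05 there were 2, where 7.61% of all genes reached it. Those 2 were Bcl2l15, at 63.2 ± 7.09 CPM in PBS and 79.2 ± 10.6 CPM in Ex4 (log2 fold change 0.33, edgeR adjusted p = 0.60), and the mitophagy receptor gene Bnip3l, at 111.1 ± 11.9 and 135.1 ± 14.0 CPM (0.28, edgeR adjusted p = 0.636). Bcl2l2, which encodes the guardian BCL-W, was at 6.01 ± 1.28 and 7.56 ± 1.47 CPM, and Bcl2a1a at 4.61 ± 0.937 and 6.17 ± 2.12 CPM (edgeR adjusted p of 0.851 and 0.841). With 1 library left out the log2 fold change came down to 0.19 for Bnip3l (without Ex4 3), from 0.33 to 0.21 for Bcl2l2 (without Ex4 2) and from 0.41 to 0.15 for Bcl2a1a (without Ex4 4).

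The machinery below the mitochondria likewise held no call. Of 13 genes of the apoptosome and caspases 0 passed in edgeR or DESeq2, with 5 above 0, 8 below and a median of -0.014. At an unadjusted edgeR p under 0.05 there was 1 gene, where 7.61% of all genes reached it. That gene was Htra2, whose released protease opposes caspase inhibitors, with PBS and Ex4 means of 44.99 ± 11.2 and 31.8 ± 6.997 CPM (log2 fold change -0.50, edgeR adjusted p = 0.566). Cycs, which encodes the cytochrome c that leaves permeabilised mitochondria, was at 326 ± 31.0 and 268 ± 37.8 CPM (-0.28, edgeR adjusted p = 0.670), and its log2 fold change was -0.11 with the epithelial term. The apoptotic protease gene Casp6 had a log2 fold change of 0.37 and the outer membrane channel gene Vdac3 of -0.29, or 0.21 and -0.44 without Ex4 3. Of 7 caspase inhibitors 0 passed in either tool, with 2 above 0 and 5 below and a median of -0.20. An unadjusted edgeR p under 0.05 was reached by 1 of them, against 7.61% of all genes. Birc2, the gene of cIAP1, reached an unadjusted p under 0.05, at 263 ± 52.9 and 190.9 ± 30.7 CPM (-0.46, edgeR adjusted p = 0.518), and Xiap had -0.35, Birc5 0.27 and Naip5 -0.26, or -0.081 for Naip5 without PBS 1.

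Bid stands below death receptors, and that arm was described by 13 genes. None passed in edgeR or DESeq2, 7 were above 0 and 6 below, and the median was 0.012. Against 7.61% of all genes, 1 gene of this arm reached an unadjusted edgeR p under 0.05. It was Tnfsf10, the gene of the death ligand TRAIL, at 209.97 ± 37.2 and 150.5 ± 17.6 CPM (log2 fold change -0.48, edgeR adjusted p = 0.432). Cflar, which encodes the caspase-8 inhibitor FLIP, was at 193.5 ± 35.3 and 157.4 ± 9.48 CPM (-0.30, edgeR adjusted p = 0.658), and the adaptor gene Tradd had -0.25. Fas, the receptor that triggers caspase-8, was at 251 ± 105 and 389 ± 96.5 CPM (0.63, edgeR adjusted p = 0.690, and 0.36 without PBS 1).

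Survival cytokine signalling was the list with the most non-overlapping genes. Of its 14 genes 5 were lower in every Ex4 library than in every PBS library, or 35.7% against 2.66% of all genes tested, and 0 were higher. None passed in edgeR or DESeq2, with 9 of 14 below 0 and a median log2 fold change of -0.26. At an unadjusted edgeR p under 0.05 there were 5, 4 of them lower, where 7.61% of all genes reached it. The genes of a list can vary together, so the count of 5 does not stand for 5 separate observations. The lists were also chosen with earlier results of these data known, so nothing is read from these counts.

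Il15ra, the chain that presents IL-15 to lymphocytes, was at 47.0, 25.1, 30.5 and 29.3 CPM in PBS 1 to 4 and at 17.8, 24.2, 20.9 and 16.7 CPM in Ex4 1 to 4. PBS 1 was again the highest, and the groups came within 1 CPM of each other. The log2 fold change was -0.73 (SE 0.21, edgeR adjusted p = 0.406), and -0.51 without PBS 1. Stat5a, a transcription factor through which IL-15 acts, was at 108.1, 121.4, 141 and 135.5 CPM in PBS 1 to 4 and at 102.5, 102.1, 93.9 and 103.6 CPM in Ex4 1 to 4. Its log2 fold change was -0.33 (SE 0.12, edgeR adjusted p = 0.538) and here PBS 1 was the lowest PBS library.

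Pik3cd, the lymphocyte PI3 kinase subunit, was at 177.7 ± 31.4 and 126 ± 14.8 CPM (log2 fold change -0.50, edgeR adjusted p = 0.429). Pim2, a survival kinase induced by STAT5, was at 352.5 ± 80.2 and 252.9 ± 22.9 CPM (-0.48, or -0.32 without PBS 1, edgeR adjusted p = 0.454). Jak1, the kinase of the shared cytokine receptors, was at 744 ± 65.0 and 616 ± 61.1 CPM (-0.27, edgeR adjusted p = 0.670), with the nearest libraries at 671 and 669.8 CPM. Against these, Il7r was at 11.9 ± 2.54 and 17.7 ± 5.19 CPM (0.58, edgeR adjusted p = 0.596), and Stat5b and Il2rb had log2 fold changes of 0.079 and -0.066. Il7r, Jak1, Stat5b and Il2rb lay outside the rule for naming genes and were named after their values were seen. With the epithelial markers as a term the log2 fold changes were -0.77 for Il15ra, -0.62 for Pik3cd, -0.61 for Pim2 and -0.25 for Stat5a.

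**Figure D5:**
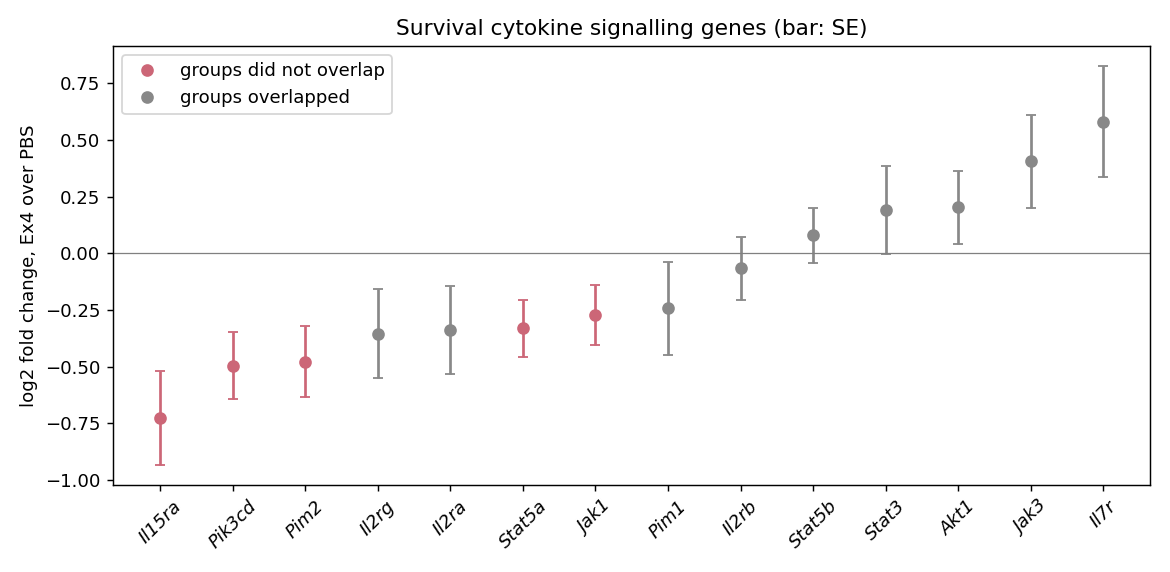
The log2 fold change, Ex4 over PBS, of 14 survival cytokine signalling genes, with the SE of the edgeR fit as the bar. The 5 genes in red, Il15ra, Pik3cd, Pim2, Stat5a and Jak1, had groups that did not overlap, all with Ex4 lower.

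Of 12 transcription factors that act on BCL2 family genes 0 passed in either tool, with 5 above 0, 7 below and a median of -0.045. Only 1 of the 12 reached an unadjusted edgeR p under 0.05, where 7.61% of all genes did. Runx3, a factor of cytotoxic T cell identity, reached an unadjusted p under 0.05 at 191.8 ± 42.2 and 140.3 ± 26.3 CPM (log2 fold change -0.45, edgeR adjusted p = 0.556). Trp53, which drives Bbc3 and Pmaip1, had -0.25, and Myc had -0.25, or -0.0062 with the epithelial term and -0.39 without Ex4 3. Nfkb1, the gene of an NF-kappaB subunit, had -0.25, or -0.15 without PBS 2. The other NF-kappaB genes of the list, Nfkb2, Rel and Rela, had 0.052, -0.087 and 0.12. They lay outside the rule for naming genes and were named after their values were seen. Of 7 genes that set the turnover of MCL1 protein 0 passed in either tool, 0 reached an unadjusted p under 0.05, 5 were above 0 and 2 below, and the median was 0.043. Bag3, a co-chaperone gene, was higher in every Ex4 library, at 16.5 ± 0.986 and 21.3 ± 2.49 CPM (0.37, or 0.22 with the epithelial term, edgeR adjusted p = 0.656). Gsk3b had 0.16, Btrc 0.10 and Usp9x -0.064, and with 1 library left out Usp9x ran from -0.16 (without PBS 3) to -0.024 (without Ex4 4).

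Genes whose centred log2 CPM followed that of Bid or Bcl2l1 most closely over the 8 libraries were ranked by root mean square difference among 8664 genes. For Bid they were Pabpc4 (0.081), Nans (0.12), Smyd2 (0.12), Tagap1 (0.15) and Cdv3 (0.15), against a median of 0.43 for all genes compared. For Bcl2l1 they were Ikbke (0.21), Cxcl10 (0.22), Ssbp3 (0.22), Dnase1l3 (0.22) and Adh1 (0.22), against a median of 0.69. All 5 genes nearest to Bid and all 5 nearest to Bcl2l1 had their highest value in PBS 1, as Bid and Bcl2l1 had. The genes were picked for likeness over these same libraries. Their small differences and the shared place of PBS 1 follow largely from that choice.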

How the data were processed

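Strand-specific mRNA libraries of CD45-sorted gut cells from 8 mice were sequenced with paired reads of 200 bases, per the labels. The file deposited by the authors holds raw counts for each gene symbol, in whole numbers. STAR 2.7.9a, DESeq2 and mm10 are named in the submitters' processing notes, with no step assigned to them. How reads were counted, and against which annotation, is not given in the sources used here. Columns were matched to mice by their descriptions, and 0 columns were unused. Replicates of a group differed by more than sampling noise.

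The main test was that of edgeR 4.0.16 under R 4.3.3 (filterByExpr, TMM, robust quasi-likelihood F test, Benjamini-Hochberg over 14691 genes). SEs were derived from the fold change and its F statistic. CPM use TMM-scaled library sizes, and log2 CPM a prior count of 2. DESeq2 1.42.0 and limma 3.58.1 (voom) were alternatives. DESeq2 gave no adjusted p for some genes at a few CPM, in the members and in several lists, and so could not call them. Python 3.11.15 with matplotlib 3.10.9 drew the figures. Exon lengths came from GENCODE M21 (GRCm38, also called mm10), which held all 10 members. Promoters are RefSeq's. The test was checked on simulated counts.

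The members and gene lists were chosen with earlier results of these data known. Named were the members, the 4 genes of each other list with the smallest p, and the 5 genes most like Bid and Bcl2l1 in profile among those averaging 3 or more in log2 CPM, leaving out predicted genes, Rik clones and receptor segments.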

Additional observations from a re-analysis of the deposited data

Results flagged for a closer look

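For 38 genes (the members and the named list genes) and the summed balance, each group was searched for a single library far from the other 3, as a ratio of its distance from the next library to the spread of the whole group in log2 CPM. The ratio passed Dixon's 95% limit in 7 of 78 groups, where chance passes about 1 in 20, or 3.9. PBS 1 was high for Bcl2 (10.35 against 9.46 for its neighbour, ratio 0.879) and low for Pmaip1 (5.90 against 6.87, ratio 0.887) and Myc (8.87 against 9.29, ratio 0.891). PBS 4 was high for Gsk3b (7.12 against 6.58, ratio 0.843). Ex4 4 was high for Bak1 (2.81 against 1.72, ratio 0.897), Ex4 2 was low for Birc5 (4.6 against 5.13, ratio 0.965) and Ex4 3 was low for Stat5a (6.55 against 6.68, ratio 0.851).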

How the results depend on the processing

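Over all genes tested edgeR called 2 genes, against 83 with DESeq2 (48 higher, 35 lower), 8 with no filter on low counts, and 1 with limma-voom, with the run of description numbers as a term, or with the epithelial score as a term. With 1 library left out the count ran from 1 to 14, the 14 without PBS 2. With the replicate block it called 1. Same-numbered libraries had correlations of their deviations of 0.090, -0.027, -0.24 and 0.14, and 1 of 4 PBS libraries correlated best with its own number. So few correlations cannot tell whether the replicate numbers pair mice, and the main test used no pairing. The block changed no call of a member.

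For the 10 members 200 values came from 20 alternatives, of which 191 kept direction and side of the threshold. Bid passed the threshold with DESeq2 and, in edgeR, with no filter, from which nothing is read, since this contrast chose it. With 1 library left out the log2 fold change ran up to 0.15 for Bcl2a1b, 0.35 for Bak1, 0.57 for Bbc3, 0.31 for Gsk3b and 0.23 for Btrc. The sign turned for Bcl2a1b without PBS 1 (-0.086), PBS 2 (-0.057), Ex4 2 (-0.0098), Ex4 3 (-0.018) or both PBS 2 and Ex4 3 (-0.078), for Bak1 (-0.21) and Bbc3 (-0.091) without Ex4 4, for Gsk3b without Ex4 4 (-0.035), and for Btrc without PBS 4 (-0.061) or with the run of description numbers (-0.037). Apart from those of Gsk3b and Btrc, all 560 values of 28 other named genes kept direction and side.

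The difference in summed balance was -0.15, from -0.22 to -0.054 with 1 library left out (-0.054 without PBS 1) and -0.33 without Bcl2a1b. With CPM in place of CPM per kb it was -0.30. The epithelial term, the omission of 2 libraries at once, the longest-transcript length and the leave-one-out counts of non-overlap were added after seeing the data. The cause of these shifts was not tested. Depth limits Bak1 and Bbc3, at 34 to 119 counts per library.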
